A study of Mus musculus with 4 samples.

Results

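The receptors through which cells sense glutamate and GABA are encoded by 47 mouse genes in this dataset. They were chosen by gene symbol from the 21938 protein-coding genes of GENCODE M21, by a rule that uses no measured value. Glutamate receptors comprised 4 AMPA (Gria), 5 kainate (Grik), 7 NMDA (Grin), 2 delta (Grid) and 8 metabotropic (Grm) genes. GABA receptors comprised 19 GABA-A (Gabr) and 2 GABA-B (Gabbr) genes. A promoter peak in every library was found for 38 of the 47 genes, and no receptor promoter passed the test between host genotypes.

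Glutamate is the main excitatory and GABA the main inhibitory transmitter of the brain. AMPA, kainate and NMDA receptors are cation channels built of several subunits, GABA-A receptors are chloride channels, and the metabotropic and GABA-B receptors act through G proteins. These genes are known best from neurons, but oligodendrocyte precursors, astrocytes and glioma cells are also known to use several of them.

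Chromatin accessibility was measured by ATAC-seq, in which a transposase cuts open DNA and leaves sequencing adapters there. The labels describe mG7080 cells, a murine glioblastoma line, that were injected into the brains of C57BL/6 mice and formed tumors. The hosts were Esm1 wild type (WT, 2 tumors) or lacked Esm1 (KO, 2 tumors), while the injected line was the same in both groups. Esm1 encodes Endocan, a proteoglycan secreted by blood vessel cells. The labels give neither age nor any treatment, and they call the material tumor tissue, whereas the study's methods speak of freshly isolated tumor cells. Nothing in the labels ties a WT tumor to a KO tumor of the same number, so the tumors were treated as unpaired. The p-values below set the difference between genotypes against the spread within genotypes, estimated with information shared across all promoters or regions tested. The 4 libraries are called WT1, WT2, KO1 and KO2 by group and replicate.

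The depth of the libraries differed. The deposited lists held between 63000 peaks (WT1) and 100088 peaks (WT2), and the genome background recovered from them lay between 4.41 and 6.85 read ends. The lowest peak height called was 13 read ends in WT1 and 15 or 16 in the others, but peaks were called against local background, so where that is high a missing peak allows heights well above those values. Esm1 itself had 0 peaks in every library and gave no check of the genotype labels. Marker promoters fixed as lists gave the cell context. All 12 neuron markers had a promoter peak in the 4 libraries, as did 7 of 10 markers of oligodendrocyte precursors, 6 of 10 of astrocytes, 0 of 10 of microglia and macrophages and 1 of 10 of endothelium. Over all protein-coding genes the share was 60.7%. Peak regions inside these marker genes but outside promoters, found in all 4 libraries, numbered 47, 20, 16, 9 and 14 in the same order of lists. Mature oligodendrocyte markers stood apart in 1 library, with 9 of 10 open in WT1, 3 in WT2, 3 in KO1 and 4 in KO2. An open promoter does not show that a gene was transcribed, and closed marker promoters do not show that a cell type was absent.

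A promoter was taken as 1000 bp on either side of any annotated transcription start. By this measure 40, 40, 38 and 40 receptor promoters were open in WT1, WT2, KO1 and KO2. The 38 genes open in all 4 libraries made up 80.9% of the receptor genes, compared with 60.7% of all protein-coding genes and 73.4% of 94 potassium channel genes (symbols beginning with Kcn), another large family of channel genes. Promoters that lacked a peak in some library were found in the NMDA and GABA-A classes. All 4 AMPA, 5 kainate, 2 delta, 8 metabotropic and 2 GABA-B genes were open in every library, against 5 of 7 NMDA and 12 of 19 GABA-A genes.

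Peak height was compared between libraries as a multiple of the library's own median promoter, a height of 65, 87, 75 and 87 read ends in WT1, WT2, KO1 and KO2. On this scale the open receptor promoters had a median of 0.819 (38 genes, mean of 4 libraries), against 1.00 over all 13310 promoters open in the 4 libraries. Their heights ranged from 0.367 at Grm6 to 1.29 at Gria2.

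**Figure D1:**
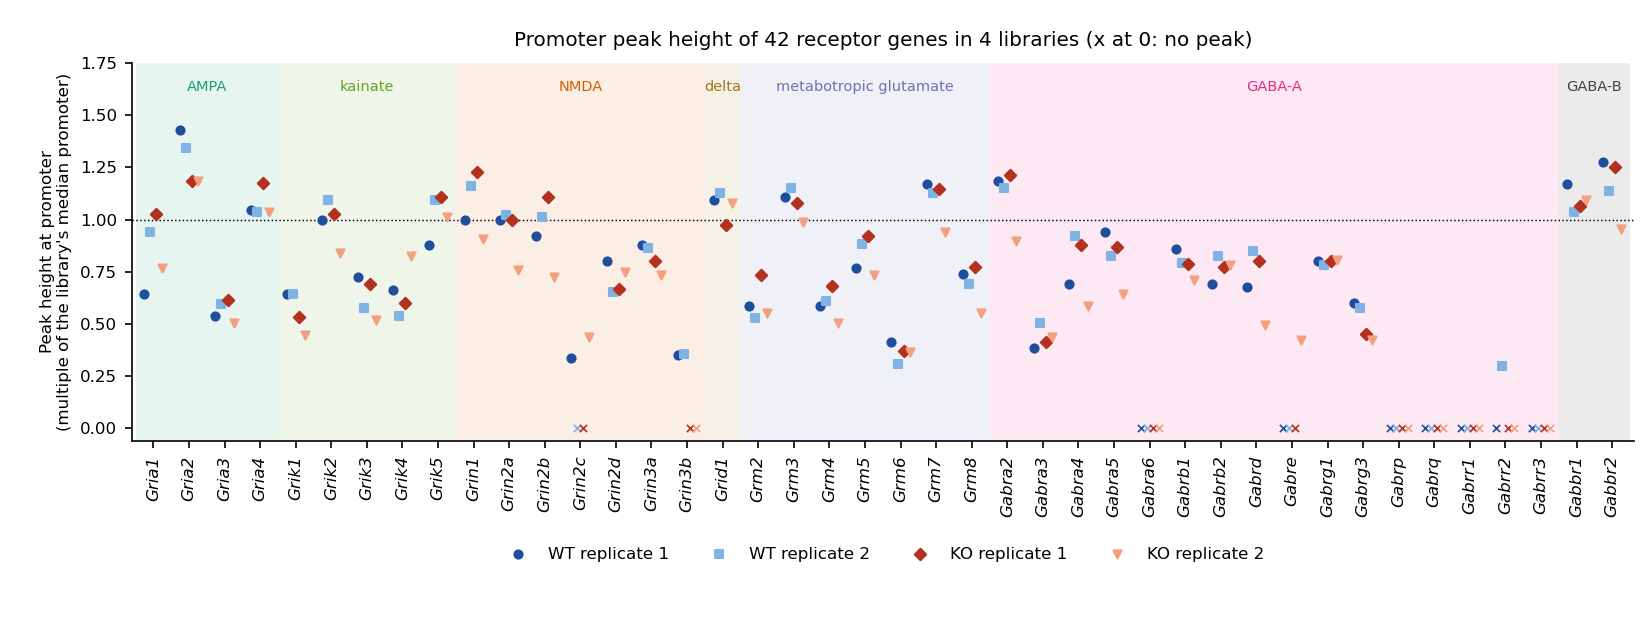
Height of the promoter peak of 42 of the 47 receptor genes (vertical axis, multiple of the library's median promoter height, no unit) by gene and receptor class (horizontal axis), with 1 symbol per library and a cross at 0 where no peak was called. Gria2 lies above 1.18 in all 4 libraries, and the crosses are limited to 2 NMDA and 7 GABA-A genes.

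Among AMPA receptors, Gria2, whose edited subunit limits calcium entry through the channel, had the tallest promoter of all receptor genes. Its peaks reached 93 (WT1), 117 (WT2), 89 (KO1) and 103 (KO2) read ends, or 1.43, 1.34, 1.19 and 1.18 times the library's median. This placed it at percentile 77.0 of all open promoters. Gria4 followed with 68, 90, 88 and 90 read ends in the order WT1, WT2, KO1 and KO2. Gria1 (42, 82, 77 and 67 in the same order) and Gria3 (35, 52, 46 and 44) were lower, and their scaled heights overlapped between WT and KO.

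In the kainate class the tallest promoters were those of Grik5, at 1.02 times the median, and Grik2, at 0.989. Grik5 encodes a high-affinity subunit that needs a partner to form a channel, whereas Grik2 can form channels alone. Grik4, Grik3 and Grik1 had means of 0.657, 0.627 and 0.568. Grik4 was highest in KO2 (72 read ends against 43, 47 and 45 in the other libraries), and no other kainate promoter was highest in that library on the scaled measure.

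NMDA receptors need the subunit encoded by Grin1, and its promoter was the tallest of the class, with 65 and 101 read ends in WT and 92 and 79 in KO. Grin2a and Grin2b, which encode the glutamate-binding subunits typical of the forebrain, followed at 0.945 and 0.941 times the median. Grin3a and Grin2d had 0.819 and 0.717. The remaining NMDA genes were the incomplete ones. Grin2c, a subunit of cerebellar granule cells, had a promoter peak of 22 read ends in WT1 and of 38 in KO2 and none in the other libraries. Grin3b, a glycine-binding subunit known from motor neurons, had 23 read ends in WT1 and 31 in WT2 and no peak in either KO library.

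Grid1, a delta receptor that binds cerebellins at synapses, had a mean of 1.07. The metabotropic class was open throughout but spanned a wide range. Grm7 and Grm3, inhibitory receptors coupled to Gi proteins, were tallest at 1.10 and 1.08. Grm5 had 0.827, Grm8 0.688, and Grm2 and Grm4 had 0.60 and 0.595. Grm6, the glutamate receptor of retinal bipolar cells, was the lowest open receptor promoter, with 27, 27, 28 and 32 read ends in WT1, WT2, KO1 and KO2, at percentile 2.74 of all open promoters.

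GABA-A channels are assembled mostly from alpha, beta and gamma subunits, and 11 of these 12 genes were open in every library. Gabra2 (77, 100, 91 and 78 read ends in the order given above) had the tallest promoter, with a mean of 1.11. Gabra5, Gabrg1, Gabrb1, Gabra4 and Gabrb2 lay between 0.769 and 0.819, Gabrg3 at 0.513, and Gabra3 at 0.435 was the lowest of the open ones. Gabrd, the delta subunit of channels outside synapses, was open at 0.705. Gabra6, the alpha subunit known from cerebellar granule cells, had no promoter peak in any library.

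The GABA-A genes outside these groups were closed or nearly so. Gabrp, a subunit known mainly from tissues outside the brain, Gabrq, and the rho subunits Gabrr1 and Gabrr3, known from the retina, had no promoter peak in any library. The rho subunit Gabrr2 had a peak in WT2 alone (26 read ends), and Gabre had one in KO2 alone (37 read ends). With Gabra6, 5 receptor genes (10.6%) were therefore open in no library, compared with 32.8% of all protein-coding genes.

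Several closed genes lie beside open relatives. On chromosome 11, Gabra6 (chr11:42306437-42321072) lies beside Gabrb2 (chr11:42419757-42629028), which was open in all 4 libraries. On chromosome X, Gabra3 (chrX:72432681-72656848) was open in all 4 libraries, whereas Gabrq (chrX:72825178-72842602) was closed and Gabre (chrX:72255999-72274803) was open in 1. The 4 genes of the chromosome 5 group (Gabrg1, Gabra2, Gabra4 and Gabrb1) and Gabrg3 and Gabra5 on chromosome 7 were all open in every library. Both genes of the chromosome 4 group, Gabrr2 and Gabrr1, lacked a peak in at least 3 libraries.

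The open and closed promoters differed in base composition. CpG density was taken as the ratio of observed to expected CG pairs in 1000 bp around the start, with the highest value of a gene's starts. Its median was 0.643 (range 0.296 to 0.977) in the 38 genes open in all 4 libraries and 0.270 (range 0.143 to 0.709) in the 9 others. Below a ratio of 0.3, 1 of 6 receptor genes was open in every library (16.7%), compared with 6.02% of all genes. From 0.3 to 0.6 it was 17 of 19 (89.5%) compared with 55.4%, and from 0.6 upward 20 of 22 (90.9%) compared with 94.3%. These shares describe the genes and were not tested, since CpG density also differs within each range.

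**Figure D2:**
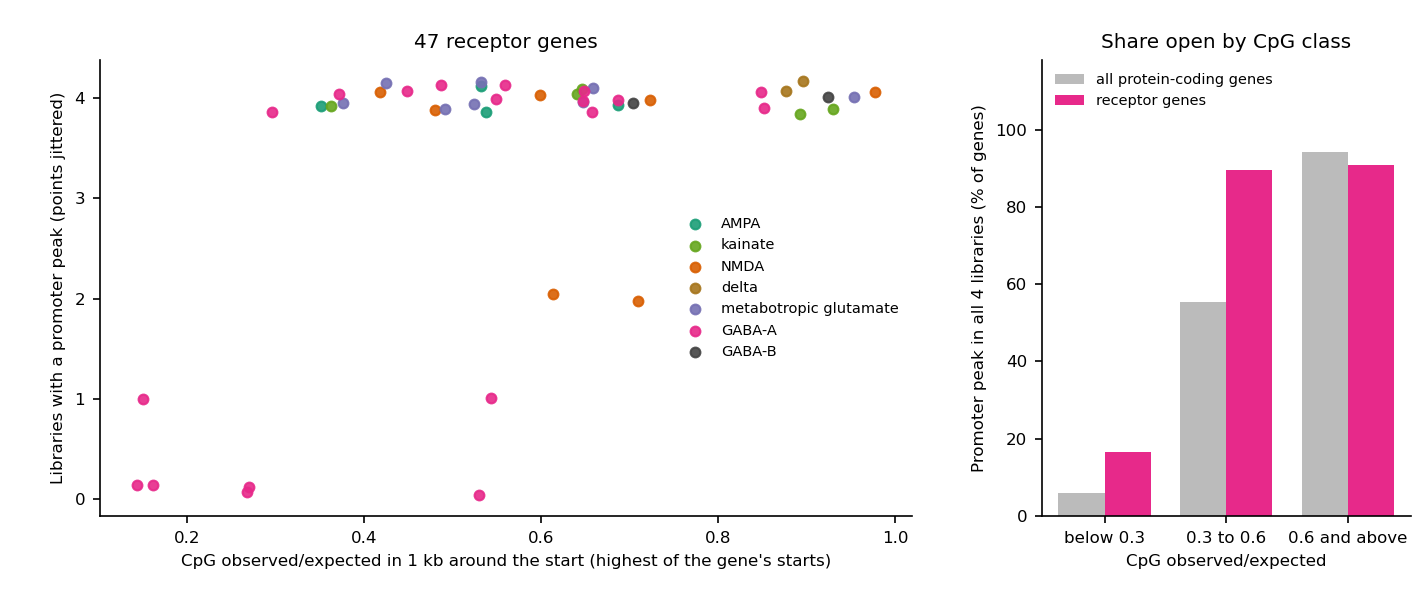
Left, number of libraries with a promoter peak (vertical axis, jittered) against the CpG observed to expected ratio (horizontal axis) for 47 receptor genes coloured by class. Right, percent of genes with a promoter peak in all 4 libraries (vertical axis) by CpG range for all protein-coding genes (grey) and receptor genes (pink). In the middle range the bars stand at 55.4% and 89.5%.

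The promoters below show how far CpG content and openness went together and where they did not. Each is the stretch of 250 bases before the start, 5' to 3' on the strand of the gene, from RefSeq on GRCm38.p6, with CG pairs in capitals. RefSeq promoters could be matched for 32 of the 47 genes. Gria2 (19 CG pairs in this stretch) was open in all 4 libraries and Gabra6 (2 pairs) in none. Gabrg1 (1 pair) was open in all 4 and Gabrq (19 pairs) in none.
Gria2 promoter, chr3:80802836-80803085: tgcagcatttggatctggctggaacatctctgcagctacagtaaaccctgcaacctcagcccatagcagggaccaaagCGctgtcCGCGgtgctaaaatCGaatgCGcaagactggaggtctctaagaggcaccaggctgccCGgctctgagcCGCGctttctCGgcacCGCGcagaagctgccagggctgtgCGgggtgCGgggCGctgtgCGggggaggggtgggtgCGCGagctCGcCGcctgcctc
Gabra6 promoter, chr11:42321073-42321322: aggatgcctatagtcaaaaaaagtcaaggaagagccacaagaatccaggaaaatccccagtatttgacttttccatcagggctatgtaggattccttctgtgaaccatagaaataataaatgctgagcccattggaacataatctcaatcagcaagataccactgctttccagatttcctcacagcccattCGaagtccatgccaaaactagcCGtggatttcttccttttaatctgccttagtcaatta
Gabrg1 promoter, chr5:70842618-70842867: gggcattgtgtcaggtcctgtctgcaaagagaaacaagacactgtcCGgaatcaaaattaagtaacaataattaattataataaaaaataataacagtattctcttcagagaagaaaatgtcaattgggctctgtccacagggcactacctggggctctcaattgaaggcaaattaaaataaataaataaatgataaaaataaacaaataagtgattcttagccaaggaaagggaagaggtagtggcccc
Gabrq promoter, chrX:72824928-72825177: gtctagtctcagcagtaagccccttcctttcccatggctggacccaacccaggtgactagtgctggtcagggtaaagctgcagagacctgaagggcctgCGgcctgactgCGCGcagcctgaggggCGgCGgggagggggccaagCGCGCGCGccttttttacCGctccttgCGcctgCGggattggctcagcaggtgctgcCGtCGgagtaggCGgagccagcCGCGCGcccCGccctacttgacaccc

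Promoter windows were also searched on both strands for short motifs. RE1 is the site of REST, a repressor that keeps many neuronal genes silent in other cells. It was searched as TCAGCACC and GGACAG with 2 bases between them and at most 1 mismatch. A match lay within 1000 bp of a start in 5 of 47 receptor genes (10.6%), compared with 167 of 21938 protein-coding genes (0.761%). Counted by start, it was 10 of 101 receptor windows (9.9%) and 0.624% of all 41525 windows. A match is a description of the letters and not evidence of binding.

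Of these matches 3 are printed, on their own strand with 7 bases on either side and the match in capitals. They fell in 3 receptor classes, and a promoter peak covered each in at least 2 libraries. The matches not printed were covered by a promoter peak too, so the choice is not a ranking.
Gria2, match at chr3:80802990-80803005: ttcgattTTAGCACCGCGGACAGcgctttg
Grin1, match at chr2:25319018-25319033: atacgctTCAGCACCTCGGACAGcacccgc
Gabrd, match at chr4:155397681-155397696: gcagcgtTCAGCACCGAGGACGGcggacag

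That at Grin1 had 0 mismatches and those at Gria2 and Gabrd had 1. The Gria2 match lay 162 bp before the start, within the stretch printed above but on the other strand. The matches at Grin1 and Gabrd lay 70 and 424 bp after the nearest start. A promoter peak covered the match in all 4 libraries at Gria2 and Grin1. At Gabrd the peak covered it in WT2 and KO2 and ended before it in the other 2.

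**Figure D3:**
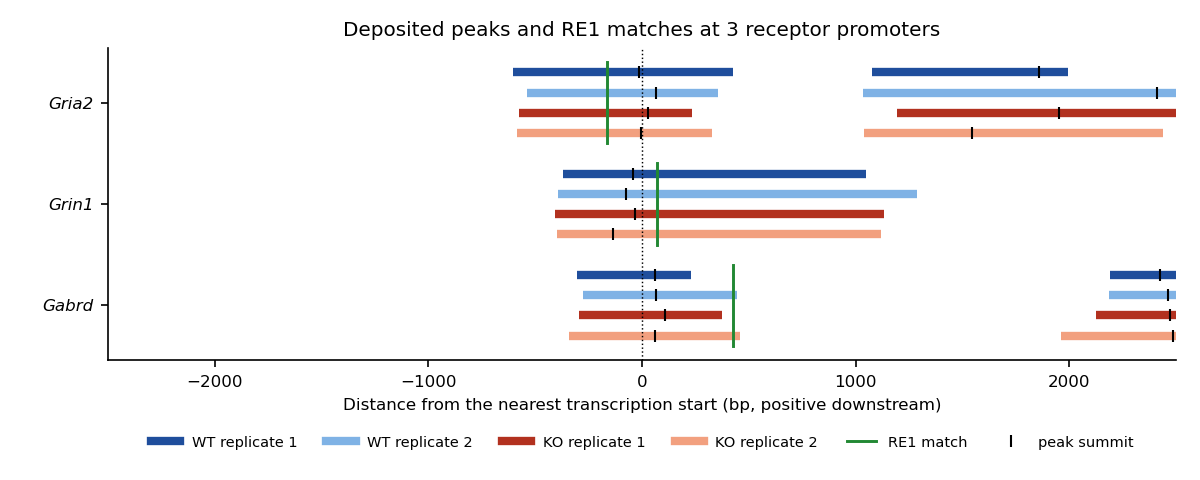
Deposited peaks (bars, 1 row per library) with their summits (ticks) and the RE1 match (green line) around the nearest transcription start of 3 receptor genes (horizontal axis, bp, positive downstream). At Gria2 the match lies 162 bp upstream, inside the peak of every library.

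Of the other motifs, the GC box (GGGCGG) was in 74.3% of receptor windows and 66.9% of all windows, the E-box CAGCTG in 72.3% and 61.9%, and the E-box CATATG in 21.8% and 27%. The AP-1 letters TGANTCA were in 26.7% against 37.3%, the octamer ATGCAAAT in 6.93% against 8.95%, and the CRE letters TGACGTCA in 0.99% against 3.96%. The NFI letters, TTGGC and GCCAA with 5 bases between them, were in 0 of 101 windows and in 0.125% of all windows. Windows of one gene can overlap, so these shares do not come from independent pieces of sequence.

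The comparison of host genotypes asked whether receptor promoters differed between tumors of WT and KO mice. By presence of a peak, 1 receptor gene was WT-only, meaning that both WT libraries had a peak and both KO libraries lacked one, and 0 were KO-only. The background was 0.197% WT-only and 0.441% KO-only among the 14746 genes with a promoter peak in any library. The WT-only gene was Grin3b, whose peaks of 23 and 31 read ends lay below the median peak of those libraries, 26 and 34. Peaks around Grin3b had a median local background of 2.39 to 2.66 times the genome background in the 4 libraries, so the height that the KO libraries could have held there without a call is not known. The WT-only count fell to 0 when each library was limited to as many peaks as the shortest list held, and likewise above a −log10 q of 5. Without WT1 it was 2, and without KO1 the KO-only count was 1.

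By height, 0 of 38 receptor promoters passed limma on the log2 height with Benjamini-Hochberg adjustment at 0.05, where 2 of 13310 promoters did (0.015%). Those were the promoters of Myc and Dynlt1b, named for the small count. Both were higher in KO, with log2 differences of 1.35 and 0.88 (KO minus WT). The paper reports the opposite direction at Myc, with a more accessible promoter in WT. The source of this disagreement was not tested. At an unadjusted p under 0.05, limma gave 1 receptor promoter and 525 of all. These counts depended on single libraries. For the fits below, the unadjusted share over all promoters is not given, so their unadjusted counts are not a result about receptor genes. Without KO1, which leaves KO2 as the lone KO library and assumes that it varies like the WT libraries, 14 of 38 receptor promoters had an unadjusted p under 0.05 and 229 of all promoters passed the adjusted test, 0 of them receptor promoters. Without WT1 the unadjusted receptor count was 0, and without KO2 it was 1, with 10 of all promoters passing the adjusted test. The receptor gene with all 4 libraries was Gria2. After scaling, its heights of 1.43 and 1.34 in WT lay above those of 1.19 and 1.18 in KO, a log2 difference of -0.23 (SE 0.10, KO minus WT, limma, adjusted p = 0.998).

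Others among the lowest p were also lower in KO on average and did not pass. Grik1 had 0.646 and 0.644 in WT and 0.533 and 0.448 in KO, with a log2 difference of -0.40 (SE 0.22). Gabrg3, a gamma subunit, had 0.60 and 0.575 against 0.453 and 0.425 (-0.42, SE 0.23). Grin2a had 1.00 and 1.02 against 1.00 and 0.759, so that KO1 equalled a WT library and the difference of -0.22 (SE 0.15) came from KO2. The highest positive difference was that of Grik4, at 0.24 (SE 0.21).

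Receptor promoters as a set were lower in KO in 30 of 38 cases (78.9%), compared with 51.4% of all promoters and 60.9% of 69 Kcn promoters. Their median log2 difference was -0.12, compared with -0.00486 over all promoters. This lean rested on 1 library. The median centred log2 height of the 38 promoters was -0.27, -0.20 and -0.20 in WT1, WT2 and KO1 and -0.43 in KO2. Centred on the genome background instead, 34 of 38 (89.5%) were lower in KO, compared with 78.4% of all promoters. Without KO2, which leaves KO1 alone against both WT libraries, 17 of 38 (44.7%) were lower in KO and the median difference was 0.02. Both KO libraries lay below both WT libraries at 10 of 38 promoters, where the background over all promoters was 16.2%, and above them at 1, Gabrg1, where it was 15%. Among the 10 were Gria2, Grik1, Grin3a, Grid1, Grm3, Gabrb1 and Gabrg3.

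Markers of other cells also differed between libraries, in KO2 and in WT1. The summed scaled promoter height of the 12 neuron markers was 12.6, 13.1 and 13.5 in WT1, WT2 and KO1 and 11.4 in KO2. That of the 10 astrocyte markers was 3.34, 3.80 and 3.75 against 5.30, and that of the 10 oligodendrocyte precursor markers 5.65, 3.83 and 4.44 against 6.38. The precursor sums thus differed between the WT libraries as well. Mature oligodendrocyte markers had 5.02, 1.64, 1.63 and 1.87 in WT1, WT2, KO1 and KO2, highest in WT1. A missing peak counted as 0 in these sums. Among the astrocyte markers Aqp4 had no promoter peak in any library. Gfap and Aldh1l1 had one in KO2 alone, at 0.793 and 0.287 times the median promoter, which added to the KO2 sum. The part of these markers in the lower receptor heights of KO2 was not tested. In bulk libraries fewer cells of a type and less opening per cell cannot be told apart.

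**Figure D4:**
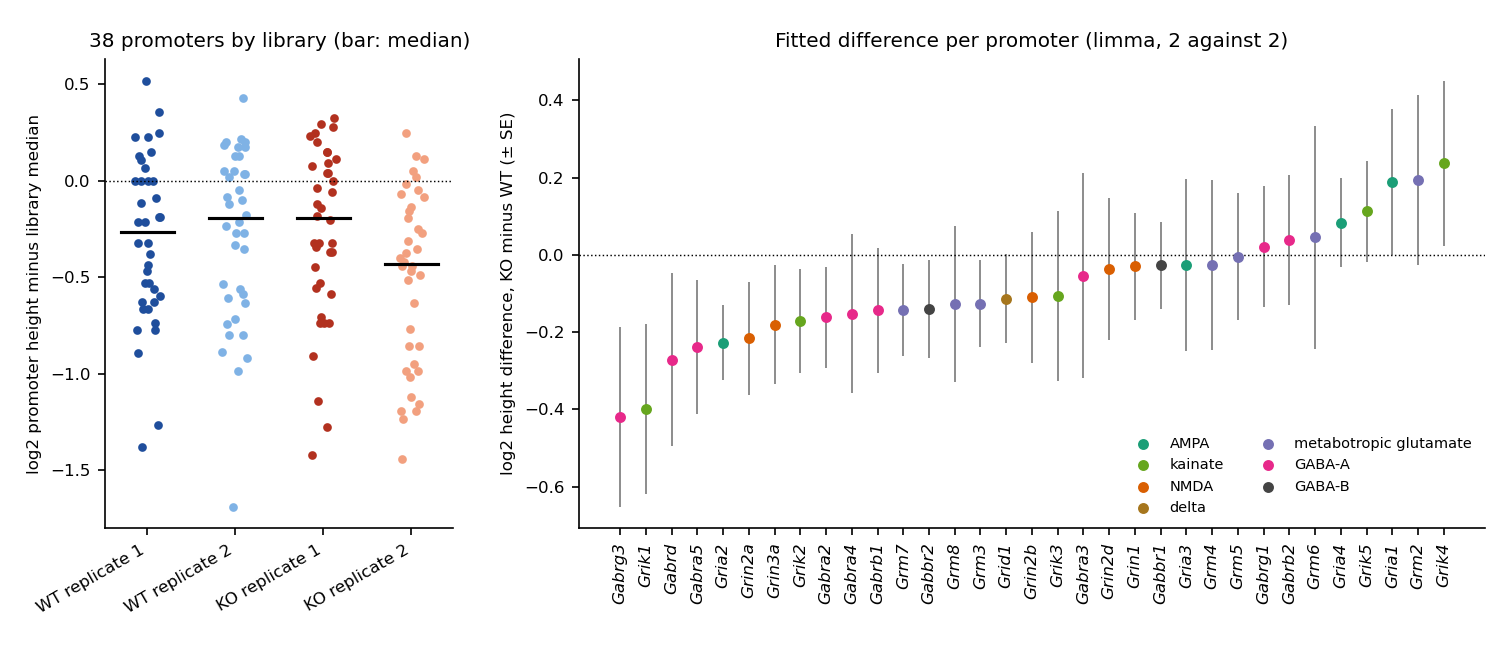
Left, log2 promoter height minus the library median (vertical axis) of the 38 receptor promoters open in all 4 libraries, 1 point per promoter and a bar at the median, by library. Right, fitted log2 difference KO minus WT with its standard error for 33 of these promoters, coloured by class. The medians stand at -0.27, -0.20, -0.20 and -0.43, and most of the differences are below 0.

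Receptor genes are long, and many peaks lay inside them. A distal region was a merged region of peaks that overlapped the gene body and no promoter of any protein-coding gene. The receptor genes held 728 such regions, 684 in introns and 44 overlapping exons (6.04%), at a median distance of 163 kb from the nearest start of the same gene. Peaks were found in 315, 592, 463 and 406 of them in WT1, WT2, KO1 and KO2, or 43.3%, 81.3%, 63.6% and 55.8%. Over all 58337 distal gene-body regions these shares were 45.2%, 80.2%, 62.9% and 61.9%, so KO2 had the largest gap between receptor genes and the rest. All 4 libraries shared 210 receptor regions (28.8%), compared with 32.4% of all. A single library held 243 (33.4%), of which 132 came from WT2, the deepest library.

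**Figure D5:**
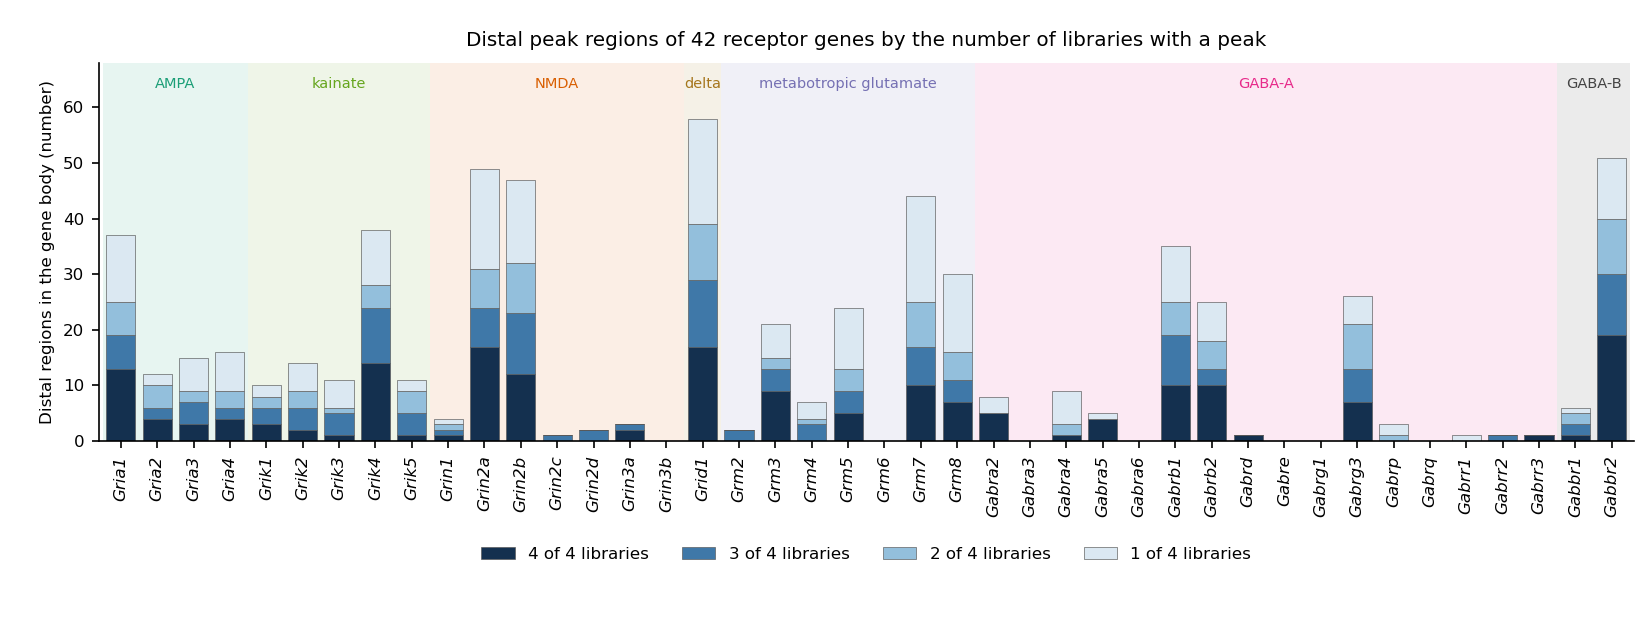
Number of distal regions in the gene body (vertical axis) of 42 of the 47 receptor genes (horizontal axis, by class), divided by how many of the 4 libraries had a peak in the region. Grid1 has the most with 58, of which 17 were found in all 4 libraries, and 7 genes have 0.

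Grid1 held the most distal regions, 58 over 763 kb, followed by Gabbr2 with 51, Grin2a with 49, Grin2b with 47 and Grm7 with 44. Per length the order was different. Gabbr2 had 15.5 regions per 100 kb, Grin2a 11.5 and Grin2b 10.2, against 7.60 at Grid1 and 4.77 at Grm7. Among the 33 receptor genes of at least 50 kb the median was 6.31 regions per 100 kb, compared with 5.48 over 5007 genes of that length. Of these 33, Gabra3 and Gabrg1 had no distal region (6.06%, compared with 7.19% of all), although both had an open promoter. The closed genes were not all empty. Gabrr3, with no promoter peak, held an intronic region of 19, 37, 24 and 23 read ends in WT1, WT2, KO1 and KO2 (chr16:59420629-59421494), and Gabrp held 3 regions, none of them in more than 2 libraries.

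Distal peaks were lower than promoter peaks. The 210 regions shared by all libraries had a median of 0.471 times the library's median promoter, compared with 0.456 over all such distal regions. The tallest were both in introns of Gabbr2, the subunit of the GABA-B receptor that couples to the G protein. The first (chr4:46805389-46806364, 186 kb from the start) held 60, 103, 80 and 77 read ends in the order of libraries above, a mean of 1.01 times the median promoter. The second (chr4:46794436-46795116) held 50, 91, 80 and 76. Next came intronic regions of Grin2b (chr6:135906967-135908397, mean 0.876), Gria1 (chr11:57271241-57272235, 0.872) and Gabrd (chr4:155395335-155396152, 0.825). None of these passed limma between genotypes (lowest adjusted p over the 210 regions 0.99997).

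Between genotypes, 14 distal regions were WT-only (1.92%, background 1.83%) and 11 were KO-only (1.51%, background 1.61%). WT-only regions lay in Grid1, Grin2a, Gabbr2 and Grm8 (2 each), and others in Gria1, Gria2, Grm7 and Gabbr1 (1 each). KO-only regions lay in Gabrg3 (2) and in Gria1, Gria3, Grik3, Grin2a, Grin2b and Grm5 (1 each), among others. Gria1 and Grin2a held regions of both kinds.

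Ranked by the lower of their relative heights, the first WT-only regions were in Gabbr1 (chr17:37063138-37063407, the single one that overlapped an exon, with 27 and 40 read ends), Grin2a (chr16:9756784-9757270, 29 and 37), Gria2 (chr3:80774382-80774739, 22 and 36), Grid1 (chr14:34963803-34964173, 33 and 34) and Gabbr2 (chr4:46842739-46842952, 22 and 31). Leading KO-only regions were in Gria3 (chrX:41505297-41505991, 26 and 35), Grin2b (chr6:135823404-135823753, 32 and 24) and Grm5 (chr7:87716363-87716975, 21 and 27). With 1 library left out, each group needs less to qualify. The count of WT-only regions was then 146 (WT1 left out), 55 (WT2), 42 (KO1) and 27 (KO2), and that of KO-only regions 14 (WT1), 111 (WT2), 46 (KO1) and 52 (KO2).

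By height, limma called 0 of the 210 regions shared by all libraries, where 2 of 18891 distal gene-body regions of all protein-coding genes were called. Over all 48089 merged regions with a peak in the 4 libraries, promoters and intergenic regions included, the share was 0.0395%. At an unadjusted p under 0.05, limma gave 3 (1.43%, compared with 3.18% of all distal gene-body regions). That count was 8 of 309 without WT1, 14 of 213 without WT2, 9 of 223 without KO1 and 1 of 238 without KO2, and 0 of 210 with the tumor number as a block. Shares over all regions are not given for these alternative fits, so their counts are not a result about receptor genes. An intronic region of Grik4 (chr9:42685990-42686584) held 22 and 31 read ends in WT and 22 and 18 in KO, with a log2 difference of -0.51 (SE 0.25). An intronic region of Gria1 (chr11:57132645-57133366) held 17 and 28 against 38 and 31 (0.54, SE 0.27), and an intronic region of Grik2 (chr10:49435892-49436738) held 48 and 65 against 44 and 43 (-0.48, SE 0.24). The median log2 difference of the 210 regions was 0.04, with 95 of the 210 lower in KO, compared with a median of -0.01 and 9794 of 18891 lower over all distal gene-body regions.

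Motifs were searched within 100 bp of the summits. The E-box CAGCTG was found in 15.4% of the 728 regions and 17.8% of all distal gene-body regions, AP-1 in 14% and 13.3%, CATATG in 6.87% and 6.23%, the GC box in 3.3% and 6.28%, and the octamer in 2.47% and 1.66%. RE1 and CRE were found in 1 region each and NFI in 0. The windows below are 151 bases around a summit on the plus strand of mm10, with AP-1 or CAGCTG letters in capitals. They show 2 tall regions shared by all libraries (Gabbr2 and Gria1) and a WT-only region (Gabbr2).
Gabbr2, chr4:46794753-46794903: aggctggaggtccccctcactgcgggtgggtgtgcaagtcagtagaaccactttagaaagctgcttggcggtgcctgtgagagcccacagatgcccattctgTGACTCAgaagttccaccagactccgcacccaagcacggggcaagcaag
Gria1, chr11:57271788-57271938: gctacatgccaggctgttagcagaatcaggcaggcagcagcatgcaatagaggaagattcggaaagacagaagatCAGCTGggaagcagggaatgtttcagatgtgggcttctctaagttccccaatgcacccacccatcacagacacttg
Gabbr2, chr4:46842779-46842929: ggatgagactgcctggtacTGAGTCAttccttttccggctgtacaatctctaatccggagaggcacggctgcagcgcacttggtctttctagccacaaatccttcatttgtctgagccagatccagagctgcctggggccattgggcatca

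The genes that release, clear and anchor at these synapses were read from fixed lists. Of 17 genes for glutamate release, uptake and metabolism, 14 were open in all 4 libraries, and Slc17a7, Slc17a8 (vesicular glutamate transporters) and Slc1a7 (a glutamate transporter of the retina) in none. Slc17a6, the remaining vesicular glutamate transporter, was open in all 4, with 0.569 and 0.425 times the median promoter in WT and 0.387 and 0.241 in KO. Slc1a2 and Slc1a3, the glutamate transporters of astrocytes, were open in all 4, with Slc1a2 between 0.931 and 1.03 and Slc1a3 between 0.292 and 0.460.

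Of 9 genes for GABA synthesis, release and uptake, 6 were open in all 4 libraries. Gad1, which makes GABA, had a promoter peak in all but KO1, and its paralog Gad2 had one in each, at 0.323, 0.506, 0.413 and 0.276 in the order of libraries above. The transporters Slc6a12 and Slc6a13 were open in none. Auxiliary and scaffold genes were open almost throughout, with 32 of 33 for ionotropic glutamate receptors and 14 of 14 for GABA receptors. The exception was Cacng5, an AMPA receptor auxiliary subunit, which lacked a peak in KO1. Homer1 and Dlg2, scaffold genes of the excitatory synapse named after their values were seen, stood at 1.62 to 1.86 and 1.31 to 1.69 times the median promoter. In each of these 4 lists 0 promoters passed the limma test and 0 were WT-only or KO-only.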

How the data were processed

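ATAC-seq peaks of 2 WT and 2 KO tumors were analysed, grouped by the sample titles. The authors deposited 1 peak list per library, called per sample on mm10. The submitters' processing notes name MACS2 and HOMER without versions, whereas the study's methods name Bowtie2 and Genrich. The lists follow the MACS2 layout. For any shift of reads at the transposase cut, the answer was not given in the sources used here. The authors' caller wrote for each peak the fold (a ratio to local background), a −log10 p-value, a −log10 q-value and a score, the last of which was not used. The smallest −log10 q was 1.30, a q-value of 0.05.

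The files give no read counts. Summit heights were recovered as whole read ends from the deposited fold and −log10 p, with a match within 0.001 in all but 2 of 331481 peaks. In simulated peaks 15233 of 15233 heights were recovered. Promoters spanned 1000 bp on either side of 41525 starts of basic GENCODE M21 transcripts, whose GRCm38 coordinates held all peaks. The tallest peak gave the height. Peaks were merged where they shared 1 bp.

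Heights of promoters (13310) and regions (48089) with a peak in all 4 libraries were compared with limma 3.58.1 (R 4.3.3) on the log2 height, centred on the library median, with a mean-variance trend and Benjamini-Hochberg adjustment at 0.05. In simulations of each set all 200 seeded changes were recovered, with 6 (promoters) and 5 (regions) false calls. Simulated residuals had an SD of 0.116 (promoters) and 0.209 (regions) on the log2 scale. The seeded changes were much larger than the receptor differences printed above, so their recovery does not show that differences of that size would be found. Loss of a peak is not seen by this test. Python 3.11.15, numpy 2.4.6, pandas 2.3.3, scipy 1.17.1 and pysam 0.24.0 were used.

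The members, lists and motifs were chosen with earlier results of these data known. Genes were named by rule. They were those open in 1 to 3 libraries, the 2 tallest promoters per class, the 5 promoters and 5 distal regions with the smallest p, the 5 genes with most distal regions, the 5 tallest distal regions and the WT-only and KO-only regions. Other members are given by their values. Results of 5 members by name are not reported here, while counts and medians over the receptor genes include them. Alternatives were a −log10 q of at least 5, equal numbers of peaks, promoters of 500 and 2500 bp, a region covered to 50%, other definitions of distal, the peak with the best p-value, another centring, a replicate block and leaving out each library. Starts of all GENCODE transcripts were added after seeing the data.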

Additional observations from a re-analysis of the deposited data

How the results depend on the processing

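Height tests kept 0 called receptor promoters and 0 called distal regions under each alternative run, including the replicate block. With the tumor number as a block the median promoter difference of -0.12 cannot move, since the layout is balanced, and 12 of all promoters passed instead of 2. Under the alternatives other than the block that kept all 4 libraries, 2 to 10 of all promoters passed. The labels do not pair tumors by number, so the block carries no design meaning. Centring on the genome background moved the median difference of all promoters by about the same amount as that of the receptor promoters, to -0.11 and -0.23. Promoters open in all 4 libraries numbered 36 to 38, without Gabrg3 at a −log10 q of at least 5, without Gabrg3 and Grm2 with equal numbers of peaks and without Grik5 and Grin2d in 500 bp promoters.

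A −log10 q of at least 5 gave 0 WT-only promoters, 463 distal regions, 130 of them in all 4 libraries, and 7 KO-only distal regions. Equal numbers of peaks gave 0 WT-only promoters. Requiring 50% of a region to be covered gave 119 distal regions in all 4 libraries and 17 KO-only ones. With 1 library left out, WT-only promoters ranged from 1 to 2, KO-only promoters from 0 to 1, WT-only distal regions from 27 to 146 and KO-only distal regions from 14 to 111, since fewer libraries then decide a call. Distal regions ranged from 607 to 694 and those in all libraries from 213 to 309. The median promoter difference ranged from -0.23 without KO1 to 0.024 without KO2. WT1, the shallowest library, limits what a missing peak can show, and 2 tumors per group limit every test.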
